A study of Mus musculus with 8 samples.

Results

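The tripartite motif (TRIM) family was examined on arrays of mouse peritoneal macrophages, the phagocytes washed from the abdominal cavity. A member was any gene whose symbol in the array annotation begins with Trim followed by a digit. The rule used names and no measured value, and it found 80 probes of 54 genes among the 25697 probes (16593 gene symbols) of the arrays. Of the 54 genes, 39 had 1 probe, 7 had 2, 5 had 3 and 3 had 4.

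Messenger RNA was measured on 8 Illumina bead arrays, 2 in each of 4 groups. The groups were FcgKO macrophages with IFNγ, FcgKO macrophages without stimulation, WT macrophages with IFNγ and WT macrophages without stimulation. FcgKO cells lack the Fc receptor γ chain, a membrane adaptor of activating Fc receptors encoded by Fcer1g, and WT cells carry it. The labels give neither the knockout allele nor the age or sex of the mice. IFNγ, the cytokine that activates macrophages, was given for 6 h. All cells came from naive mice of the C57BL/6 strain. They adhered overnight in culture medium that held 10% serum and, as a source of the macrophage growth factor M-CSF, 15% supernatant of L929 cells, and floating cells were then removed. The labels call the samples duplicates and do not say whether each came from its own animal or well. The p-values reflect the spread between these samples alone, and that spread may be technical.

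Most TRIM proteins have a RING finger, which makes them E3 ubiquitin ligases, followed by B-box domains and a coiled coil, although some members lack the RING finger, and they differ in the C-terminal part that binds the target. The largest class ends in a PRY-SPRY domain. Many members are known from innate immunity, as sensors or restriction factors of viruses or as regulators of the signals from Toll-like and RIG-I-like receptors, and others act in transcription, muscle or nerve cells. Interferons raise part of the family in many cell types, and GAS and ISRE elements in promoters are known from interferon-responsive genes.

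In these macrophages 7 of the 54 genes passed the test for a response to IFNγ in either genotype. With 1 probe per gene, 6 of the 54 were called in FcgKO (11.1%, against 12.2% of all genes) and 7 in WT (13%, against 13.3% of all genes), which are shares near the background. Trim21, Trim30a and Trim30d rose in both genotypes, Trim56 rose in WT, and Trim8, Trim28 and Trim32 fell in both. The promoters of the 4 genes that rose are shown because the interferon elements named above would lie there. Each runs from 250 bases before to 50 bases after the transcription start of the RefSeq gene, 5′ to 3′ on the gene's strand, on mouse GRCm38.p6. Capitals mark matches to an ISRE core, that is GAAA, any 2 bases and GAAA, searched on both strands. The regions are chr7:102565433-102565732 for Trim21, chr7:104465144-104465443 for Trim30a, chr7:104507800-104508099 for Trim30d and chr5:137116158-137116457 for Trim56, all on the minus strand.
Trim21: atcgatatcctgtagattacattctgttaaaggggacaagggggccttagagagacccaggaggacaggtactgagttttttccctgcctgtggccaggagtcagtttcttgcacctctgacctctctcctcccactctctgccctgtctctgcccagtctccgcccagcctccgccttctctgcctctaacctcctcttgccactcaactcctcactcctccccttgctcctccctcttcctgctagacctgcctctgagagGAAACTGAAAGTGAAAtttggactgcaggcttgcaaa
Trim30a: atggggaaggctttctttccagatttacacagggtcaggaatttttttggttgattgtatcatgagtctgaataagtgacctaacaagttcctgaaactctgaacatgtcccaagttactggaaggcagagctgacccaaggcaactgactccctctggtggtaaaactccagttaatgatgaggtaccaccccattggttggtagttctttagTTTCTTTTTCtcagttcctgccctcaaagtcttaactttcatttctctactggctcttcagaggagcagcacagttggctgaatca
Trim30d: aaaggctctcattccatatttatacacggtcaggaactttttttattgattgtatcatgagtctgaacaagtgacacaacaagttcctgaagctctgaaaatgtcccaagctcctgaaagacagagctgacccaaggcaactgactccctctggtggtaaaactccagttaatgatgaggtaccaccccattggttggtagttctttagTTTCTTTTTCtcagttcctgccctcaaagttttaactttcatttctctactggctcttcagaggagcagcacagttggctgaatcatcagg
Trim56: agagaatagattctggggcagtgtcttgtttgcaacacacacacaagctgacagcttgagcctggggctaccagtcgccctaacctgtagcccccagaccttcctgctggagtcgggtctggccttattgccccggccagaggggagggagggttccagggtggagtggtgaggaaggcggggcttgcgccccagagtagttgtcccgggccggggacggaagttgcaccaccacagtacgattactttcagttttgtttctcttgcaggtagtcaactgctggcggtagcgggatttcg

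The Trim21 promoter held 2 overlapping matches downstream of the start, at bases 14 to 23 and 20 to 29 counted from the start. Trim30a and Trim30d each held 1 match on the opposite strand, at bases -36 to -27 in Trim30a and -41 to -32 in Trim30d, and read there as TTTCTTTTTC. These 2 promoters are near copies, with 277 identical bases in 305 aligned columns (90.8%), so their matches are not independent. A second RefSeq promoter of Trim30a (chr7:104446076-104446375) held a match at bases 3 to 12. The Trim56 promoter held none. RefSeq promoters were matched for 42 of the 54 genes, and for 6 of the 7 that responded (none for Trim8). The ISRE core was found in 1131 of 32851 mouse promoters (3.44%) and in 6 of 53 promoters of the Trim genes on the array (11.3%). Among the 7 promoters of the genes that responded, 4 held it (57.1%). These 4 are 1 of Trim21, 2 of Trim30a and 1 of Trim30d. The Trim30a and Trim30d promoters are 65.5% to 90.8% identical to one another, so the 57.1% counts related sequences more than once. Trim2 and Trim12c held the ISRE core as well and did not pass the test. Trim12c lay below the median of every array, and no Trim2 probe lay above it on all arrays. In FcgKO, Trim2 probe ILMN_2511355 read 96.2 and 99.6 with IFNγ, against 106.2 and 105.4 without stimulation. In WT it read 91.0 and 99.8 with IFNγ, against 105.7 and 102.8 without stimulation. Why Trim2 and Trim12c did not pass was not tested. The GAS element, spelled TTCNNNGAA, was found in 8.3% of all promoters and in 4 of the 53 of the Trim genes, those of Trim31, Trim38, Trim45 and Trim46, and in 0 of the 7. A match describes these letters in this window and is not a site of binding.

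The values were read from the deposited intensities, which the authors had already normalised between arrays. Array medians lay between 102.98 and 103.02, replicates correlated across probes with r from 0.996 to 0.997 on the log2 scale, and precision is limited by the number of arrays. The Fcer1g probe, read first as a check of the genotype labels, gave 95.6 to 107 on the 4 FcgKO arrays and 16987 to 18350 on the 4 WT arrays. All 5 measured macrophage markers lay above the array median on every array. Of these, Gata6 fell with IFNγ, with a log2 response of -1.97 in FcgKO and -2.14 in WT, and Timd4 rose, with 1.72 and 1.58. Of 5 mast cell markers, 4 lay above the median on all arrays and 1 on none. Their summed intensity was 995 to 1219 in FcgKO and 1750 to 2081 in WT. Of 4 B cell markers, 3 lay above it on all arrays and 1 on none (sums of 1179 to 1766 in FcgKO and 1470 to 2362 in WT). All 3 T cell markers lay above it on all arrays (352 to 453 in FcgKO and 375 to 415 in WT). The sums include the dim genes, and a gene at the array median adds 102.98 to 103.02. Of the mast, B and T cell marker probes, 0 were called for IFNγ in either genotype at an adjusted p below 0.05 with limma. Between the genotypes, 7 of 8 mast cell probes were called lower in FcgKO with IFNγ and 4 of 8 without stimulation (log2 differences from -0.47 to -1.25), and so was Timd4 (-0.85 with IFNγ and -0.99 without). Their part in the results was not tested. No NK cell, dendritic cell, fibroblast or mesothelium marker lay above the median on all arrays, and 1 neutrophil marker, Retnlg, did.

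Of the 80 Trim probes, 27 (22 genes) lay above the median probe on all 8 arrays, 33 on none and 20 on some. That is 33.8% above on all arrays, against 41.4% of all probes. The 22 genes were Trim3, Trim6, Trim8, Trim11, Trim16, Trim21, Trim23, Trim25, Trim28, Trim29, Trim30a, Trim30b, Trim30d, Trim32, Trim33, Trim35, Trim36, Trim39, Trim41, Trim47, Trim56 and Trim65. No probe lay above the median on any array for 19 genes: Trim9, Trim12c, Trim13, Trim14, Trim17, Trim31, Trim37, Trim42, Trim43a, Trim50, Trim52, Trim58, Trim60, Trim61, Trim66, Trim67, Trim72, Trim75 and Trim80. For these a response cannot be told from the low end of the scale. The remaining genes (Trim2, Trim10, Trim38, Trim40, Trim44, Trim45, Trim46, Trim54, Trim59, Trim62, Trim63, Trim68 and Trim69) had a probe above it on some arrays.

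The first comparison asked which members respond to IFNγ in each genotype. Log2 intensities after normexp background correction were fitted with limma over all 25697 probes, and a probe was called at a Benjamini-Hochberg adjusted p below 0.05. In FcgKO, 7 of the 80 probes were called (8.75%, against 10.3% of all probes), 4 higher and 3 lower, against 4.6% higher and 5.75% lower among all probes. In WT, 8 were called (10%, against 11.5% of all probes), 5 higher and 3 lower, against 4.97% and 6.56% among all probes. These shares are near the background. Among the 27 probes above the median on all arrays, 25.9% were called in FcgKO and 29.6% in WT, against 23% and 25.6% of the 10629 probes of that kind. The median log2 response of the 80 probes was -0.0075 in FcgKO and -0.0044 in WT, against -0.012 and -0.0074 over all probes. Of the calls, 4 higher and 3 lower were shared by the genotypes. The share of calls in common over all probes was not worked out, so whether this sharing is particular to the family was not tested. In bulk samples, fewer cells of a type and less RNA per cell cannot be told apart.

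Trim21, a cytosolic ubiquitin ligase that binds the Fc part of antibodies on incoming viruses, had the largest log2 response of the family in both genotypes. Its probe ILMN_3139158 read 753 and 979 in FcgKO with IFNγ, against 197 and 215 in FcgKO without stimulation. In WT it read 821 and 743 with IFNγ, against 230 and 201 without stimulation. All 4 stimulated arrays lay above all 4 unstimulated ones. The log2 response was 2.27 ± 0.12 in FcgKO (SE, limma adjusted p = 3.41e-07) and 2.05 ± 0.12 in WT (limma adjusted p = 7.78e-07). The ratio of mean deposited intensities was 4.20 in FcgKO and 3.63 in WT.

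The other probes of Trim21 gave smaller responses, or none that passed. Probe ILMN_3061663 read 139 and 153 in FcgKO with IFNγ, against 110 and 108 without stimulation, and 138 and 162 in WT with IFNγ, against 109 and 105 without stimulation. These groups did not overlap either, and the log2 response was 0.59 ± 0.10 in FcgKO (SE, limma adjusted p = 0.00267) and 0.67 ± 0.10 in WT (limma adjusted p = 9.63e-04). Its size depends on the background correction and reached 0.95 in FcgKO and 1.08 in WT with an offset of 16 in place of 50. Probe ILMN_1214544 read 99.1 to 110 on the 8 arrays with overlapping groups, and its log2 response was 0.01 in FcgKO and 0.08 in WT (limma adjusted p = 0.985 and 0.758). Which part of the transcript each probe reads is not given in the sources used here.

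Trim30a is a mouse PRY-SPRY protein that dampens Toll-like receptor signalling by promoting the degradation of TAB2 and TAB3, adaptors of the kinase TAK1. Its probe ILMN_1229630 read 637 and 778 in FcgKO with IFNγ, against 187 and 240 without stimulation. In WT it read 590 and 554 with IFNγ, against 307 and 258 without stimulation. Stimulated and unstimulated arrays did not overlap in either genotype. On the log2 scale it responded by 1.92 ± 0.14 in FcgKO (SE, limma adjusted p = 4.37e-06) and 1.13 ± 0.14 in WT (limma adjusted p = 2.89e-04).

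Trim30d, a close relative of Trim30a, rose in both genotypes. Its probe ILMN_2695412 read 173 and 206 in FcgKO with IFNγ, against 119 and 121 without stimulation, and 177 and 181 in WT with IFNγ, against 126 and 123 without stimulation. The groups did not overlap. IFNγ changed it on the log2 scale by 0.85 ± 0.09 in FcgKO (SE, limma adjusted p = 9.99e-05) and 0.69 ± 0.09 in WT (limma adjusted p = 4.54e-04). Whether the probe of either gene also binds transcripts of the other was not tested.

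Both genes lie in a run of 11 related genes on chromosome 7, in the order Trim6, Trim34a, Trim5, Trim12a, Trim34b, Trim12c, Trim30b, Trim30c, Trim30a, Trim30d and Trim30e-ps1 in the RefSeq table. Of these, 5 had a member probe: Trim6, Trim12c, Trim30b, Trim30a and Trim30d. Trim30a and Trim30d, next to each other among the Trim genes, were called. Trim30b, the nearest measured gene on the other side, had 2 probes, of which ILMN_2689651 read 109 and 121 in FcgKO with IFNγ, against 108 and 109 without stimulation. In WT that probe read 117 and 120 with IFNγ, against 108 and 104 without stimulation. Its log2 response of 0.12 in FcgKO and 0.24 in WT did not pass (limma adjusted p = 0.562 and 0.101).

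Trim56, a ubiquitin ligase known from antiviral responses to cytosolic DNA and double-stranded RNA, was the gene called in WT and not in FcgKO. Its probe ILMN_2441921 read 223 and 271 in FcgKO with IFNγ, against 203 and 178 without stimulation, and 337 and 284 in WT with IFNγ, against 178 and 205 without stimulation. The stimulated arrays lay above the unstimulated ones in both genotypes. The log2 response was 0.44 ± 0.13 in FcgKO (SE, limma adjusted p = 0.0608) and 0.82 ± 0.13 in WT (limma adjusted p = 0.00161). The FcgKO response was 0.61 without the first FcgKO array with IFNγ and 0.28 without the second, and 0.56 and 0.33 without the first or second unstimulated FcgKO array. The difference of the responses was -0.37, with a 95% interval from -0.79 to 0.04 (limma adjusted p = 0.776), so a difference between the genotypes was not shown.

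**Figure D1:**
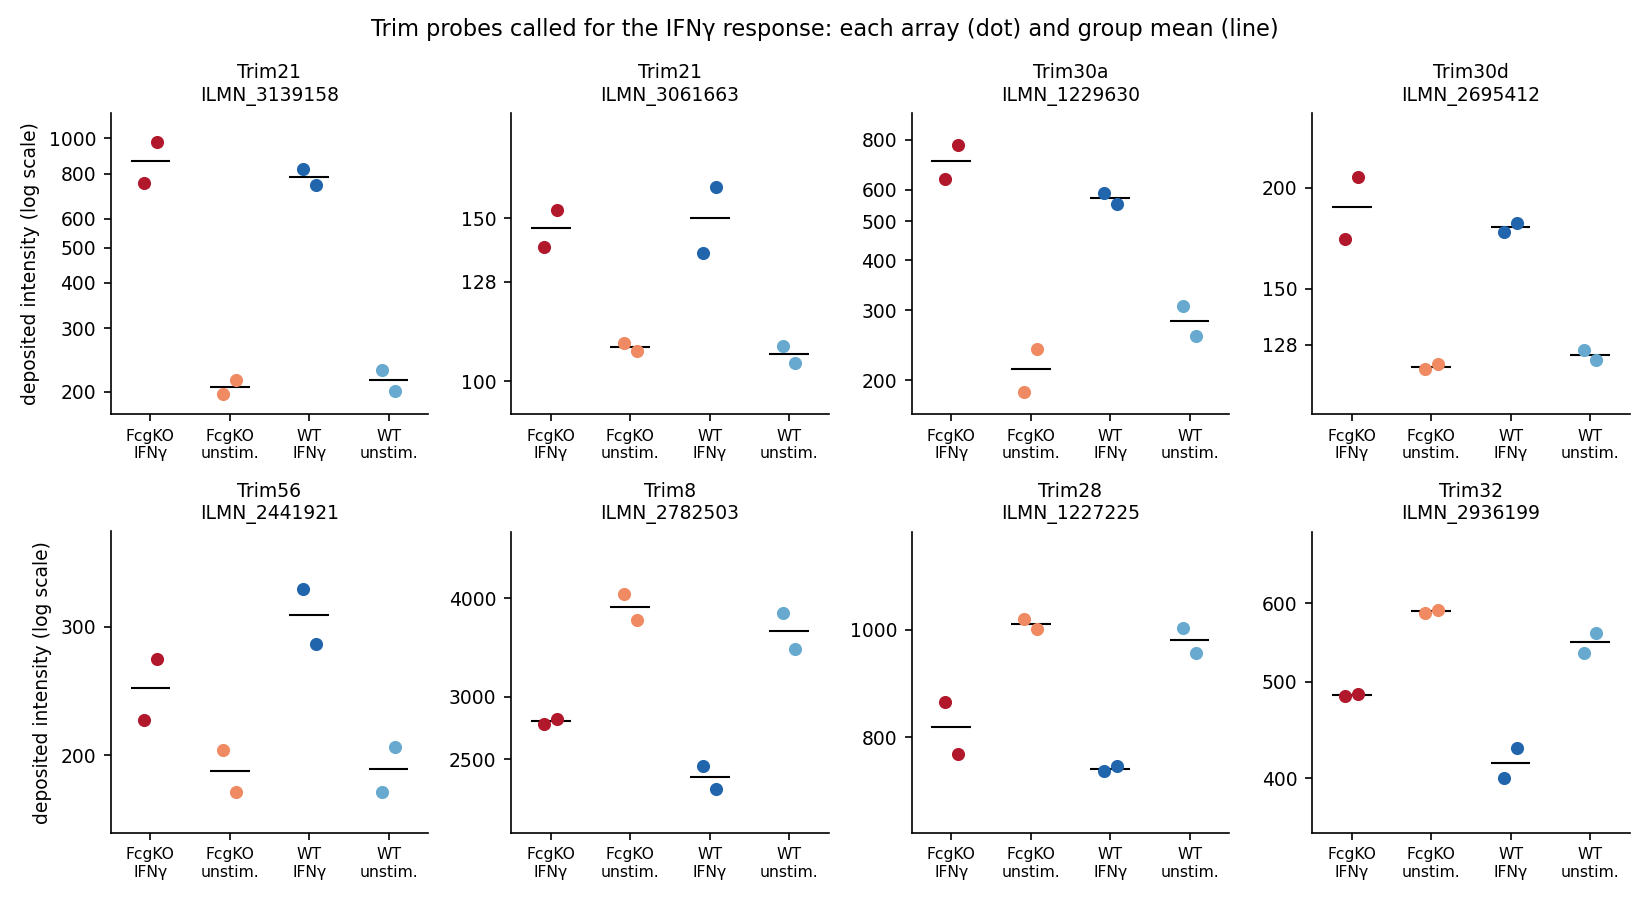
Deposited intensity (log2 axis) of the 8 Trim probes called for the IFNγ response, in each of the 4 groups. Dots are single arrays and lines are group means. The stimulated arrays of Trim21, Trim30a, Trim30d and Trim56 lie above the unstimulated arrays of the same genotype, and those of Trim8, Trim28 and Trim32 lie below.

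Among the genes that fell, Trim8 had the largest log2 change. Trim8 is a ubiquitin ligase that binds SOCS1, an inhibitor of interferon signalling, and acts on TAK1. Its probe ILMN_2782503 read 2773 and 2816 in FcgKO with IFNγ, against 4054 and 3756 without stimulation. In WT it read 2451 and 2293 with IFNγ, against 3834 and 3449 without stimulation. The groups did not overlap. On the log2 scale it responded by -0.49 ± 0.08 in FcgKO (SE, limma adjusted p = 0.00169) and -0.62 ± 0.08 in WT (limma adjusted p = 2.50e-04).

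Trim28, also called KAP1, is a corepressor that KRAB zinc finger proteins bring to retroelements and other silenced regions. Its probe ILMN_1227225 read 861 and 773 in FcgKO with IFNγ, against 1022 and 1002 without stimulation, and 745 and 753 in WT with IFNγ, against 1005 and 952 without stimulation. All stimulated arrays lay below all unstimulated ones. IFNγ changed it on the log2 scale by -0.32 ± 0.07 in FcgKO (SE, limma adjusted p = 0.0165) and -0.40 ± 0.07 in WT (limma adjusted p = 0.00400). The FcgKO call was lost without the second FcgKO array with IFNγ (-0.24) and without the first or second unstimulated FcgKO array (-0.31 and -0.34).

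Trim32 is a ubiquitin ligase with NHL repeats, known from muscle, where its mutations cause a limb-girdle dystrophy in humans. Its probe ILMN_2936199 read 484 and 486 in FcgKO with IFNγ, against 587 and 591 without stimulation, and 400 and 429 in WT with IFNγ, against 535 and 561 without stimulation. The stimulated arrays lay below the unstimulated ones in both genotypes. The log2 response was -0.30 ± 0.07 in FcgKO (SE, limma adjusted p = 0.0164) and -0.43 ± 0.07 in WT (limma adjusted p = 0.00144). The FcgKO call was lost without any single FcgKO array, at values of -0.30 or -0.31. A second probe of Trim32, ILMN_1238237, did not pass, with log2 responses of 0.01 in FcgKO and -0.13 in WT (limma adjusted p = 0.976 and 0.466).

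**Figure D2:**
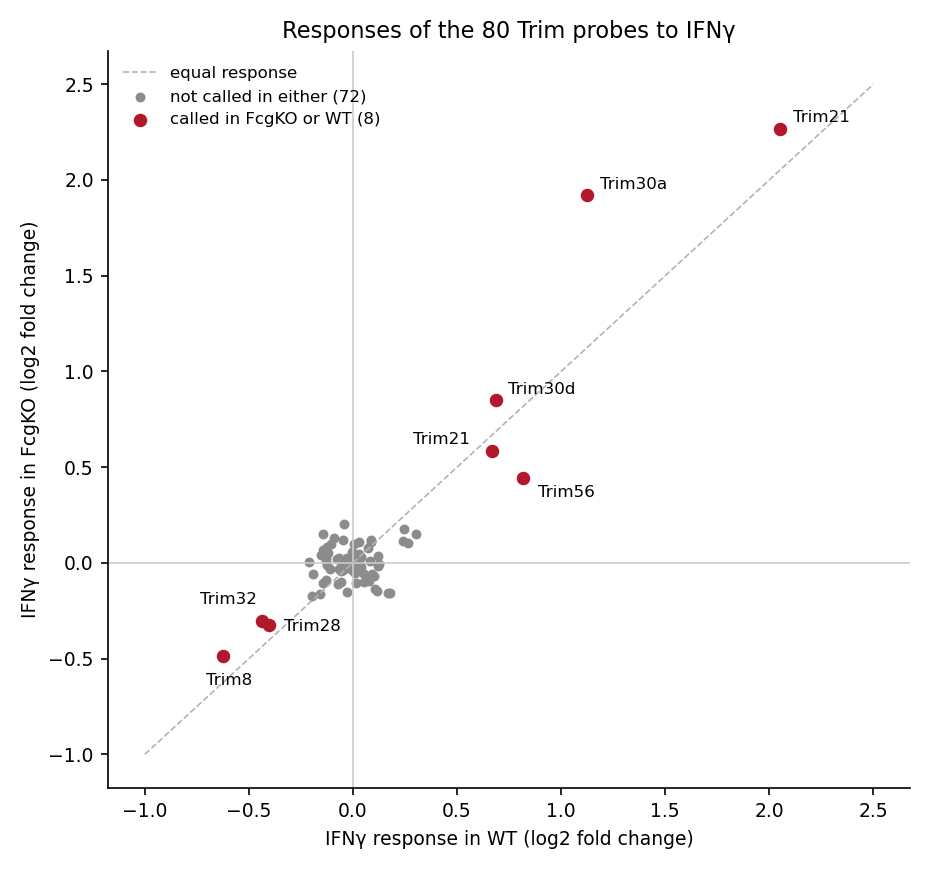
IFNγ response (log2 fold change) of each of the 80 Trim probes in FcgKO (vertical axis) and in WT (horizontal axis), with the 8 probes called in either genotype in red and a dashed line of equal response. The other 72 probes lie near 0, Trim30a lies above the line and Trim56 below it.

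The 73 probes not called in FcgKO had log2 responses from -0.17 to 0.44, and the 72 not called in WT from -0.21 to 0.30. The median 95% interval of a response, unadjusted for the number of probes, reached 0.18 to either side, so smaller changes could not be told from 0 for most probes. Larger changes could still miss the adjusted threshold, as 0.44 did for Trim56 in FcgKO (limma adjusted p = 0.0608). Trim25, the ligase that modifies RIG-I and carries ISG15, was looked at after its values were seen. Its probe ILMN_2927093 read 120 and 129 in FcgKO with IFNγ, against 116 and 120 without stimulation, and 117 and 118 in WT with IFNγ, against 113 and 113 without stimulation. Its log2 response was 0.11 in FcgKO, with a 95% interval from -0.05 to 0.27, and 0.08 in WT, with an interval from -0.07 to 0.24 (limma adjusted p = 0.520 and 0.638).

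**Figure D3:**
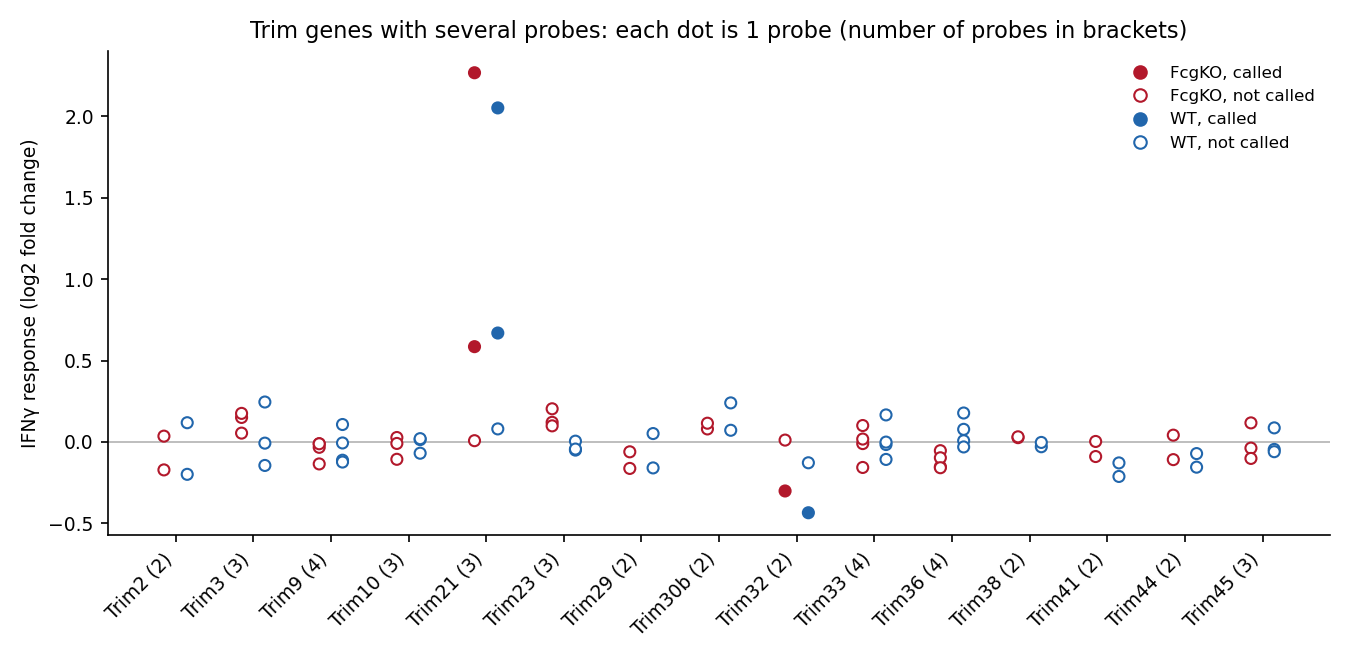
IFNγ response (log2 fold change) of every probe of the Trim genes that have 2 or more probes, with FcgKO to the left of WT for each gene. The 3 Trim21 probes lie between 0.01 and 2.27 in FcgKO and between 0.08 and 2.05 in WT.

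Genes were also sorted by the class of their C-terminal part. The class listed as PRY-SPRY does not hold every Trim gene that ends in a SPRY domain. It had 23 genes on the array, 3 of which rose in both genotypes (Trim21, Trim30a and Trim30d) and 0 fell. By probes, 4 of 30 were called higher in each genotype and 0 lower, against 4.6% higher and 5.75% lower in FcgKO and 4.97% and 6.56% in WT over all probes, and classes this small give no more than these counts. The median log2 response of the class was 0.02 over 30 probes in each genotype. Of the 3 genes with NHL repeats, Trim32 fell, and Trim2 and Trim3 did not pass. Of the 3 genes with a PHD finger and bromodomain, Trim28 fell, and Trim33 and Trim66 did not pass. No gene passed among the 4 of the class with a COS box and fibronectin type III repeats (Trim9, Trim36, Trim46 and Trim67). Neither did the 2 with a COS box and no SPRY domain (Trim54 and Trim63) or the 2 transmembrane genes (Trim13 and Trim59). Trim23 with its ARF domain, Trim37 with its MATH domain and Trim45 with its filamin repeat did not pass. The other 14 genes, among them Trim14, Trim16, Trim47 and Trim62, which are also known to end in a SPRY domain, included Trim8, which fell in both genotypes, and Trim56, which rose in WT.

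The second comparison set FcgKO against WT in each condition. With IFNγ, 0 of the 80 Trim probes were called with limma (against 2.6% of all probes), and 8 had an unadjusted p below 0.05 (10%, against 11.6% of all probes). Without stimulation, 0 were called (against 0.724% of all probes), and 2 had an unadjusted p below 0.05 (2.5%, against 7.76%). Log2 differences ran from -0.38 to 0.35 with IFNγ and from -0.48 to 0.27 without stimulation. The median was 0.02 with IFNγ and 0.0019 without stimulation, against 0.00065 and 0.0024 over all probes. A miss of the threshold does not show that the genotypes were alike.

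The members nearest to the threshold were picked after their values were seen. With IFNγ, Trim47 (ILMN_2504823) read 189 and 167 in FcgKO, against 146 and 149 in WT, a log2 difference of 0.35 with a 95% interval from 0.14 to 0.55 (limma adjusted p = 0.0981). Trim36 (ILMN_2857947) read 144 and 168 in FcgKO with IFNγ, against 182 and 183 in WT with IFNγ, a log2 difference of -0.29 with an interval from -0.49 to -0.10 (limma adjusted p = 0.145). Neither pair of groups overlapped. Without the second FcgKO array with IFNγ, Trim36 was called lower (limma adjusted p = 0.0300), 1 probe in place of 0. Without stimulation, Trim68 (ILMN_2635642), which lay near or below the array median throughout, read 104 and 101 in FcgKO, against 93.3 and 89.1 in WT (limma adjusted p = 0.186).

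For the probes that fell with IFNγ, none of the genotype differences passed. In stimulated cells the log2 difference of FcgKO against WT was 0.24 for Trim8, 0.13 for Trim28 and 0.25 for Trim32 (limma adjusted p = 0.193, 0.600 and 0.115). For the main Trim21 probe it was 0.14 with IFNγ and -0.07 without stimulation, with 95% intervals from -0.13 to 0.42 and from -0.35 to 0.20.

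The third comparison asked whether the response itself differed between FcgKO and WT. For this difference of responses 0 of the 80 probes were called with limma (against 0.0428% of all probes), and 7 had an unadjusted p below 0.05 (8.75%, against 6.83%). Trim30a had the largest log2 difference of responses, 0.80 with a 95% interval from 0.35 to 1.25 (limma unadjusted p = 0.00244, adjusted p = 0.392). It was picked as the largest of the 80 probes, which the interval and the unadjusted p do not allow for. A difference between the genotypes was not shown. The 2 FcgKO arrays of Trim30a lay above the WT arrays with IFNγ (637 and 778, against 590 and 554) and below them without stimulation (187 and 240, against 307 and 258). The log2 difference was 0.32 with IFNγ (95% interval 0.0012 to 0.64) and -0.48 without stimulation (-0.80 to -0.16), with limma adjusted p = 0.430 and 0.278. These comparisons share their samples with one another. The median 95% interval of a difference of responses reached 0.25 to either side.

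**Figure D4:**
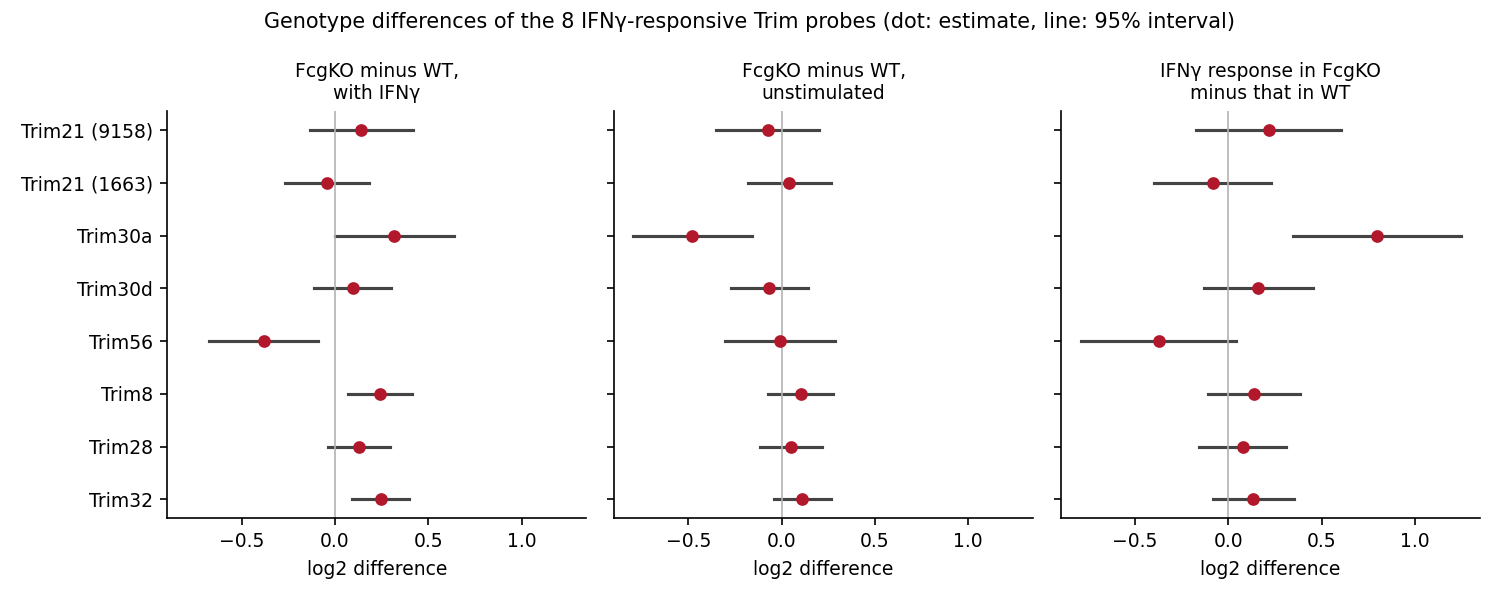
Genotype differences (log2) of the 8 Trim probes that responded to IFNγ, as FcgKO minus WT with IFNγ, FcgKO minus WT without stimulation, and the difference of the IFNγ responses. Dots are estimates and lines 95% intervals. Trim30a has the largest difference of responses, 0.80, which was not called.

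Genes that work with TRIM proteins or resemble them were described as a setting for the members. TRIM proteins that carry another symbol had 4 genes on the array (Pml, Mid1, Mid2 and Mefv). Of these, Pml, the organiser of nuclear bodies, rose in both genotypes. Pml (ILMN_2732576) read 1443 and 1506 in FcgKO with IFNγ, against 609 and 579 without stimulation, and 1685 and 1384 in WT with IFNγ, against 764 and 649 without stimulation. Its log2 response was 1.36 ± 0.11 in FcgKO (SE, limma adjusted p = 5.51e-06) and 1.16 ± 0.11 in WT (limma adjusted p = 1.99e-05). Mefv, which encodes pyrin, was the gene of these lists outside the RIG-I path that was called between the genotypes. Without stimulation it read 96.3 and 99.9 in FcgKO, not above the array median, against 121 and 116 in WT (limma adjusted p = 0.0242), and was at least 1.15-fold lower in FcgKO. Of 8 mast cell probes, 4 were called lower in FcgKO without stimulation, and so was Timd4 (log2 difference -0.99). Their part in the Mefv difference was not tested.

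Relatives of the family with a SPRY or bromodomain, the SP100 proteins and the RIG-I ligase Rnf135, had 4 genes on the array. All 4 were called higher in FcgKO and in WT, each by 1 probe. That is 4 of 6 probes, against 4.6% of all probes in FcgKO and 4.97% in WT. Of the 4 list probes above the median on all arrays, 2 were called in each genotype. The share among such probes at large was 23% in FcgKO and 25.6% in WT. The list was chosen with earlier results of these data known. The median log2 response of its 6 probes was 0.50 in FcgKO and 0.43 in WT. Sp140 (ILMN_3162887) read 246 and 248 in FcgKO with IFNγ, against 127 and 129 without stimulation, and 244 and 273 in WT with IFNγ, against 132 and 147 without stimulation. The log2 response of the called Rnf135 probe was 0.41 in FcgKO and 0.49 in WT (limma adjusted p = 0.00839 and 0.00236). Another Rnf135 probe, ILMN_2655034, was not called, with 0.25 in FcgKO and 0.08 in WT (limma adjusted p = 0.103 and 0.739). Unstimulated cells of a genotype did not reach the array median for Sp110 in both genotypes and for Sp100 in FcgKO. Sp110 was at least 1.32-fold higher with IFNγ in FcgKO and at least 1.17-fold higher in WT, and Sp100 was at least 1.53-fold higher in FcgKO (limma adjusted p = 0.00115, 0.0236 and 2.80e-05).

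TRIM ligases pass on ubiquitin or ubiquitin-like proteins with the help of E1 and E2 enzymes. Of 12 such genes, 3 rose in FcgKO and 4 in WT, and Vcp, a segregase that extracts ubiquitinated proteins, fell in both. Of the 12 probes of the list above the median on all arrays, 4 were called in FcgKO and 5 in WT, against 23% and 25.6% of such probes at large. The genes that rose in both belong to the ISG15 path, namely ISG15 itself, its activating enzyme Uba7 and its conjugating enzyme Ube2l6. Isg15 (ILMN_1256257) read 2151 and 2481 in FcgKO with IFNγ, against 214 and 269 without stimulation, and 1693 and 1641 in WT with IFNγ, against 308 and 251 without stimulation. Its log2 response was 3.48 ± 0.13 in FcgKO (SE, limma adjusted p = 1.62e-08) and 2.75 ± 0.13 in WT (limma adjusted p = 1.15e-07). Uba7 had a log2 response of 2.17 in FcgKO and 2.03 in WT, and Ube2l6 of 1.53 and 1.51. Ube2d3, a general E2, was called in WT (0.33, limma adjusted p = 0.0405) and read 0.27 in FcgKO (limma adjusted p = 0.111). The median log2 response over the 15 probes of the list was 0.07 in FcgKO and 0.11 in WT.

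In the RIG-I path, in which Trim25 acts, 9 genes were measured by 13 probes, and in each genotype 4 genes had a probe called higher and 1 a probe called lower. Of the 12 probes above the median on all arrays, 5 were called in each genotype, against 23% in FcgKO and 25.6% in WT of such probes at large. Irf7, Ddx58 (the gene of RIG-I) and the kinase gene Tbk1 rose in both. Their log2 responses were 1.36, 0.55 and 0.35 in FcgKO and 1.09, 0.52 and 0.36 in WT. The other calls passed in a single genotype, and none of their differences of response passed (limma adjusted p = 0.776 for Ikbke, 0.794 for Ikbkg, 0.723 for Irf3 and 0.743 for Mavs). Ikbke had a log2 response of 0.48 in FcgKO, called, and 0.25 in WT (limma adjusted p = 0.0973). Mavs had -0.11 in FcgKO and -0.32, called, in WT. Ikbkg was called by 1 of its 3 probes (ILMN_2630423, 0.09 in FcgKO and 0.32 in WT), and the others gave 0.03 and 0.07 in WT. Irf3 was called by 1 of its 3 probes (ILMN_2664319, -0.37 in FcgKO and -0.14 in WT), and the others gave -0.10 and -0.15 in FcgKO. The kinase gene Ikbke was lower in FcgKO than in WT in both conditions. It read 373 and 404 in FcgKO with IFNγ, against 547 and 509 in WT with IFNγ, and 274 and 302 in FcgKO without stimulation, against 467 and 435 in WT without stimulation. The log2 difference was -0.48 with IFNγ and -0.72 without stimulation (limma adjusted p = 0.00990 and 0.00219). Ikbkg was called lower in FcgKO with IFNγ by the same single probe (-0.54, limma adjusted p = 0.00622), and its other probes gave -0.34 and -0.13 (limma adjusted p = 0.0712 and 0.671). Mast cell markers and Timd4 were lower in FcgKO as well, as given above, and their part in these genotype differences was not tested. In the TAK1 path, on which Trim30a and Trim8 act, 1 of 12 probes was called in each genotype, near or under the share over all probes (10.3% in FcgKO and 11.5% in WT). Tab2 had a log2 response of 0.26 in FcgKO, called, and 0.23 in WT (limma adjusted p = 0.0714), with a difference of 0.04 (limma adjusted p = 0.983). Traf6 was called by 1 of 3 probes (ILMN_2960750), with 0.06 in FcgKO and 0.25, called, in WT, and a difference of -0.19 (limma adjusted p = 0.797).

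**Figure D5:**
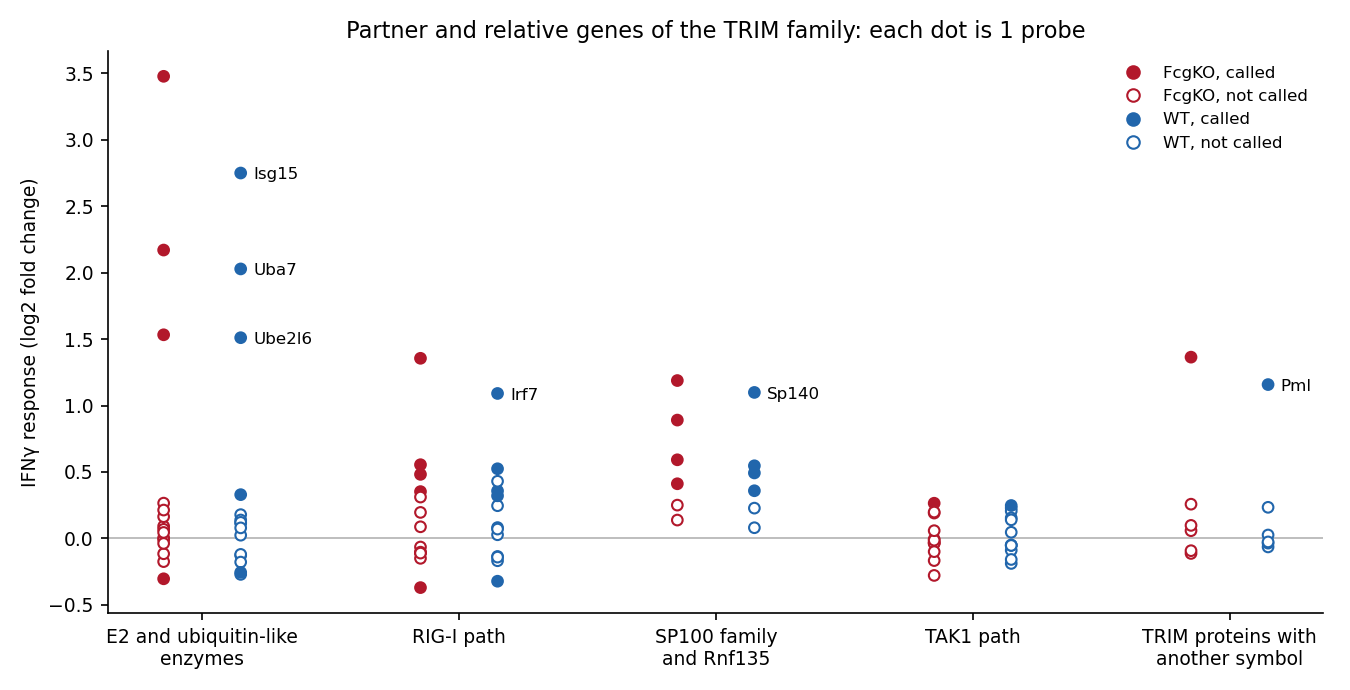
IFNγ response (log2 fold change) of each probe of 5 lists of genes that work with TRIM proteins or resemble them, with FcgKO to the left of WT in each list. Filled dots were called, among them Isg15 at 3.48 in FcgKO and 2.75 in WT.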

How the data were processed

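RNA of 8 samples was hybridised to Illumina bead arrays after DNase treatment, amplification and biotin labelling, per the labels. The submitters' processing notes name GenomeStudio, whose version is not given in the sources used here. The deposited intensity values, linear and from 82.1 to 22479, were already normalised between arrays by the authors, as the largest gap between their sorted columns was 0.00585 in log2 units. They were not background-subtracted. A second table has 16 columns (8 of signal, 8 of detection p) whose samples are not known, and it was left out.

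Background was corrected by normexp (offset 50) before taking log2. The offset lowers the fold changes of dim probes. A mean per group was fitted on all 25697 probes (limma 3.58.1, R 4.3.3, version 1.17.8 of data.table, with 4 residual and 7.05 prior degrees of freedom), with Benjamini-Hochberg adjustment over all probes. Arrays have no read depth, and the median probe of each array served as the low end of the scale. An "at least" fold sets the bright group's mean, in log2 of the deposited intensity, against the dim group's mean after raising any value under that median to it.

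All 80 Trim probes matched a RefSeq gene by identifier. Promoters were searched with Python 3.11.15 and aligned with Biopython 1.88, and figures were drawn with matplotlib 3.10.9. The rule for names took every Trim gene called in any comparison, and list genes called with the largest changes. The members and lists were chosen with earlier results of these data known. Alternatives changed the background correction, normalisation, probe filter, variance model, samples fitted, replicate block and replicates.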

Additional observations from a re-analysis of the deposited data

How the results depend on the processing

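The number of Trim probes called for IFNγ was 5 to 8 in FcgKO and 7 to 10 in WT over all alternatives, the genotype comparison without stimulation and the difference of responses gave 0 in each, and the genotype comparison with IFNγ gave 0 except for 1 probe, Trim36, without the second FcgKO array with IFNγ (0 to 1 when single arrays were left out). With the replicate number as a block the counts were 7, 8, 0, 0 and 0, and over all probes more were called in every comparison. The labels state no pairing, so the numbers were not taken as pairs. Deviations of samples with the same number correlated with r from -0.05 to 0.31 over 10629 probes, and whether such samples share a batch was not tested. Of 16 responses of the 8 named probes, 12 kept their call in every alternative run for them (16 each, and 15 for Trim21 ILMN_3061663, which has no value with 1 probe per gene) and 0 reversed. Trim28 in WT was not called with an offset of 16 (log2 -0.42). Trim28 and Trim32 in FcgKO were not called with an offset of 16 (-0.34 and -0.32), with an intensity trend in the variance, or without some single arrays. Trim56 in FcgKO was called in 6 alternatives, with adjusted p from 0.0252 to 0.378 over all of them. The smallest adjusted p of a Trim probe for the difference of responses lay between 0.153 and 0.835. The cause of these changes was not tested. Over all probes, calls ranged from 1594 to 2937 for IFNγ in FcgKO (2658 as reported), 1858 to 3229 in WT (2963), 304 to 920 between genotypes with IFNγ (667), 66 to 319 without (186), and 3 to 58 for the difference of responses (11). Dim probes limit what could be seen: 33 of the 80 lay below the median on every array.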
